A study of Mus musculus with 1 sample.

Results

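Transcripts of 7 chemokine receptor genes, Ccr1, Ccr2, Cxcr2, Cxcr3, Cxcr4, Cxcr6 and Cx3cr1, were counted in the single cells of mouse MC38 tumors and compared between macrophage states, monocytes, neutrophils, T and NK cells, tumor cells and fibroblasts. The genes were listed by name out of 32285 genes in the table, with earlier results of these data known. MC38 is a mouse colon carcinoma line, grown here under the skin of female C57BL/6J mice that were 4 to 6 weeks old when they were purchased. The study set tumors in which Atp6v0a1, a subunit of the V-ATPase proton pump, had been knocked down against control tumors, and the library described here carries the genotype label WT and is taken as the control. The label names no shRNA, while the study's methods name a non-targeting shRNA (shNTC) for the control, and the knockdown library was not analysed here. Cells of 5 control tumors were mixed in equal proportions before capture on the droplet platform and no tag told the mice apart, so there was 1 library, no replicate and no test between groups of cells.

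Chemokines are small secreted proteins that guide cells by binding receptors of the G protein-coupled family, which signal through inhibitory G proteins and are then silenced by kinases, arrestins and RGS proteins. Ccr1 and Ccr2 bind CC chemokines and are known for bringing monocytes out of blood and bone marrow, Cxcr2 calls neutrophils, Cxcr3 binds the interferon-induced chemokines Cxcl9 and Cxcl10 on activated lymphocytes, Cxcr4 binds Cxcl12 and holds many cells in marrow and stroma, Cxcr6 binds Cxcl16 and marks tissue-dwelling T cells, and Cx3cr1 binds the membrane-tethered chemokine Cx3cl1 on monocytes, macrophages and cytotoxic lymphocytes. In tumors such receptors are known for deciding which leukocytes enter and where they stay.

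On chromosome 9 lie 4 of the genes in the annotation GENCODE M21 of GRCm38: Cx3cr1 at chr9:119901616-120069879 on the minus strand, Cxcr6 at chr9:123806475-123811760 on the plus strand, Ccr1 at chr9:123962124-123968692 on the minus strand and Ccr2 at chr9:124101950-124113557 on the plus strand. Cxcr2 (chr1:74153989-74161246, plus) and Cxcr4 (chr1:128588199-128592293, minus) lie on chromosome 1, and Cxcr3 (chrX:101731535-101734269, minus) on the X chromosome. The whole of Cxcr6 lies inside Fyco1, which is read from the opposite strand, and the long annotated span of Cx3cr1 crosses Gorasp1, Csrnp1 and Xirp1 on its own strand. Overlap of their exons, and any effect on the counts, was not tested. The promoters of 4 genes are shown because the comparisons within the myeloid and T cells turn on them: Ccr2 and Cx3cr1 were of opposite order in monocytes and macrophages, and Cxcr6 and Cxcr3 in groups of T cells. Each runs 5′ to 3′ on the gene's own strand from 250 bases before to 50 bases after the RefSeq start on GRCm38.p6, at chr9:124101933-124102232 (Ccr2, plus), chr9:120068247-120068546 (Cx3cr1, minus), chr9:123806227-123806526 (Cxcr6, plus) and chrX:101734098-101734397 (Cxcr3, minus), and capitals mark matches to the motif letters given after them.
Ccr2: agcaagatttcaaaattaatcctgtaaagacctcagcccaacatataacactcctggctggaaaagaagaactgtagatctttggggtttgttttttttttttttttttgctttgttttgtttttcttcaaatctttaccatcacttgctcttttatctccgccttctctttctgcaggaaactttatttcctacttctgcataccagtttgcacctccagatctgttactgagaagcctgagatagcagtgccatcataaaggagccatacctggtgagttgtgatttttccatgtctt
Cx3cr1: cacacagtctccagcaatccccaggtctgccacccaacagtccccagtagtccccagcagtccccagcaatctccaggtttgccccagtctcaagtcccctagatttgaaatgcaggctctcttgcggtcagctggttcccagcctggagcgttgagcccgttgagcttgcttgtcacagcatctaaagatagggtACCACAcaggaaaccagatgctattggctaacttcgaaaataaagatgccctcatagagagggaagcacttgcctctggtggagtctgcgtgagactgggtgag
Cxcr6: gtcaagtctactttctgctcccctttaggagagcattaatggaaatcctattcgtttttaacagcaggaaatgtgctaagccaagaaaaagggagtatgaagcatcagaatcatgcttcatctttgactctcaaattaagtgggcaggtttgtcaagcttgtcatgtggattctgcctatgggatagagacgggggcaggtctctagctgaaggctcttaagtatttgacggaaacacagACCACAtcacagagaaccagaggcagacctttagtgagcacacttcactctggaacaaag
Cxcr3: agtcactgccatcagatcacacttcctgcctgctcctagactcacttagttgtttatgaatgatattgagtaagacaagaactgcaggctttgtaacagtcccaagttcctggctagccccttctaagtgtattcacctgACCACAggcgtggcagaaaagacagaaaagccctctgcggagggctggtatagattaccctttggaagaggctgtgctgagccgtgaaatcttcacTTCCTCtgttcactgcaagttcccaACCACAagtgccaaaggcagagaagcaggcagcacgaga

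All 7 genes had a RefSeq promoter of 300 bases. The letters searched on both strands were TGTGGT for the RUNX factors, GAGGAA for PU.1 and TATAAA for a TATA box, none of which overlaps another by its letters alone, and 16.8%, 28.3% and 13.6% of 32851 promoters of this length held them. The RUNX letters stood at position -10 of Cxcr6, -54 of Cx3cr1, -58 of Ccr1, and -110 and 12 of Cxcr3, counted from the start. The PU.1 letters stood at -14 of Cxcr3, -129 of Ccr1, and -81 and 7 of Cxcr2, and the TATA letters at -32 and -30 of Cxcr4 overlapped on opposite strands. The Ccr2 window held none of these letters. A match describes the sequence and was not tied to any level below.

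Of 5307 called cells, 4443 were kept, with a median of 10442 UMIs (unique molecular identifiers, each standing for 1 captured RNA molecule). Clustering without any chemokine or chemokine receptor gene, and naming by marker lists that hold no chemokine receptor, gave 1475 macrophage-like cells (median 8885 UMIs), 170 monocyte-like (4492), 44 dendritic cell-like (9247), 41 neutrophil-like (710.0), 170 T and NK-like (3652), 41 fibroblast-like (5518), 18 pericyte-like and 738 unnamed cells. The remaining 1746 cells (median 40784 UMIs) were high in Shisal2b and Rhox5, genes that mark MC38, and low in Xist and Ptprc. They are called by those 2 genes and stand for the tumor cells, because the epithelial markers of the label were near 0 in them: Krt18 had 0 UMIs, Epcam 1, Krt8 7 and Krt7 22 in 76681727 UMIs. A level is given as CPM, a gene's UMIs per 1000000 UMIs summed over a group, with an exact 95% Poisson interval, and shares and ratios carry exact binomial intervals, all of which cover counting error only and not the spread between mice. Levels are compared mainly between groups for 1 gene, and levels of different genes shown together are not read as a difference between the genes.

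The receptors differed in the cells that held them, as the plot of levels by group shows. Most transcripts of Ccr1, Cxcr4 and Cx3cr1 lay in macrophages, with 83.6%, 83.7% and 91.4% of their UMIs in kept cells falling in macrophage-like cells, the largest immune group. Cxcr6 was a T cell transcript, with 249 of 263 UMIs (94.7%) in T and NK-like cells. Ccr2 had its highest levels in monocyte-like and Treg-like cells, although 61.3% of its UMIs lay in the far more numerous macrophage-like cells and 22.8% in monocyte-like cells, and Cxcr3 and Cxcr2 were rare, Cxcr3 highest in Treg-like cells and Cxcr2 in neutrophil-like cells. In the Shisal2b- and Rhox5-high cells all 7 were at or below the 1.53 CPM of Cxcr4.

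**Figure D1:**
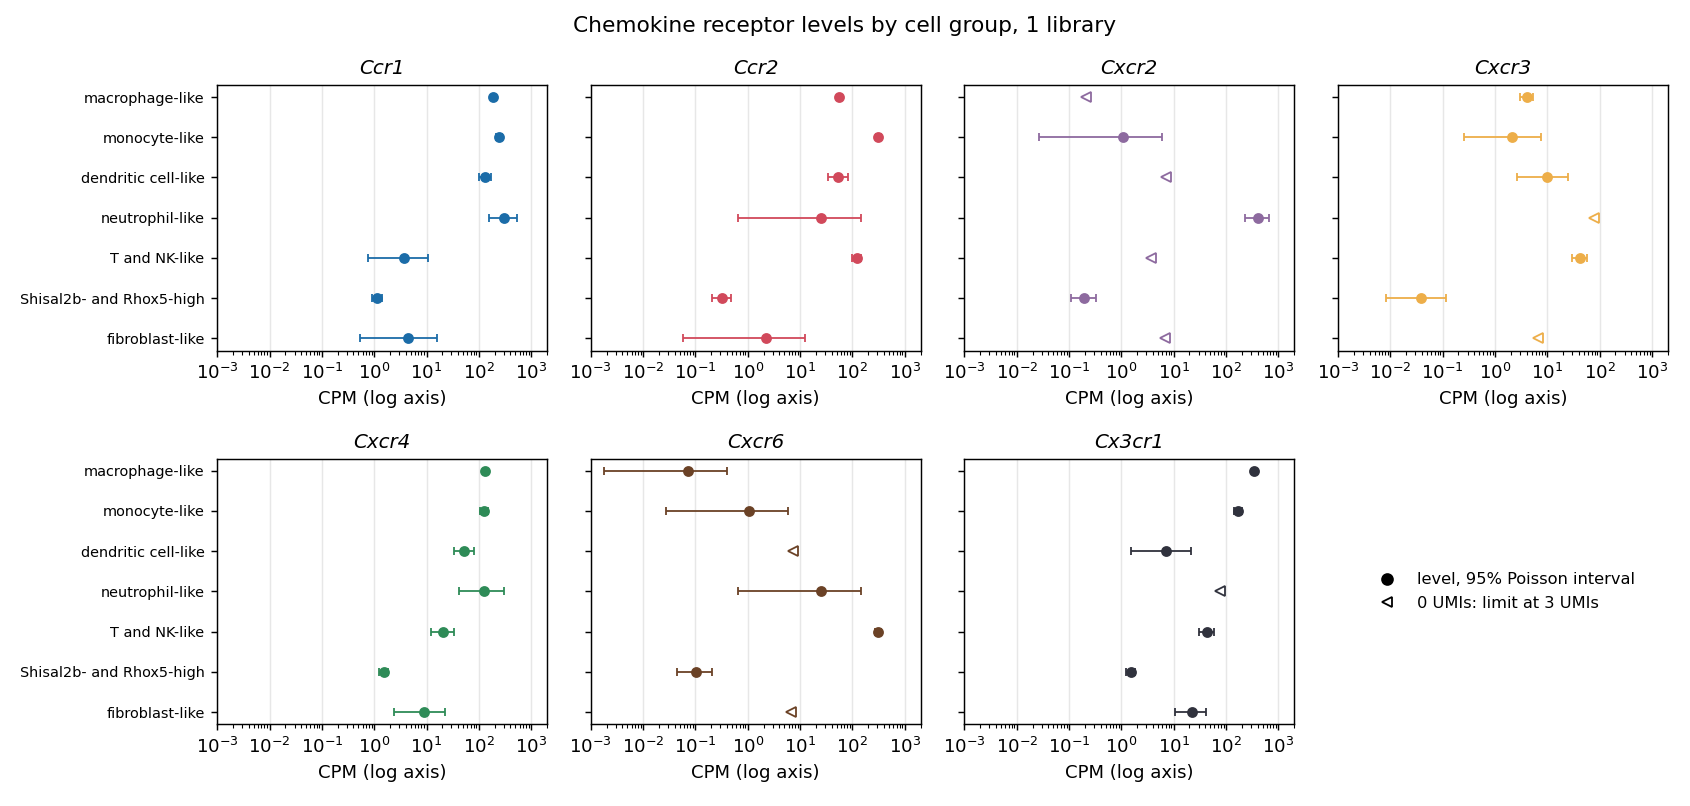
Level of each of the 7 receptors in each cell group, as CPM on a log axis; points are levels with exact 95% Poisson intervals, and open triangles mark groups with 0 UMIs at the limit of 3 UMIs. Cx3cr1 ran from 348 CPM in macrophage-like cells to 1.5 CPM in Shisal2b- and Rhox5-high cells, and Cxcr6 from 306 CPM in T and NK-like cells to 0.0710 CPM in macrophage-like cells.

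Ccr1, a receptor for Ccl3, Ccl5, Ccl6 and Ccl9, was a transcript of all 4 myeloid groups. It stood at 307 CPM (interval 159 to 537, 12 UMIs) in neutrophil-like cells, 243 CPM (213 to 277) in monocyte-like cells, 185 CPM (178 to 192) in macrophage-like cells and 133 CPM (100.3 to 173) in dendritic cell-like cells. The first 2 could not be separated (ratio 1.26, 0.644 to 2.25), monocyte-like cells were 1.31-fold above macrophage-like cells (1.14 to 1.5), and dendritic cell-like cells were at 0.719 of the macrophage-like level (0.540 to 0.938). Outside the myeloid groups Ccr1 was low, with 3 UMIs in T and NK-like cells (3.69 CPM), 2 in fibroblast-like cells (4.46 CPM), and 1.13 CPM among Shisal2b- and Rhox5-high cells. A Ccr1 UMI was found in 60.7% of macrophage-like and 58.2% of monocyte-like cells against 4.58% of the far deeper Shisal2b- and Rhox5-high cells, and after every cell was thinned to 3000 UMIs the shares were 36.8%, 46.9% and 0.413%. Macrophage-like cells were 50.2-fold above T and NK-like cells (17.1 to 243), a ratio that rests on the 3 UMIs of the latter.

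Ccr2, the receptor for Ccl2, Ccl7 and Ccl12 through which inflammatory monocytes leave the marrow, was a transcript of the monocyte-like cells more than of the macrophages. It stood at 312 CPM (277 to 349, 295 UMIs) in monocyte-like cells and 56.2 CPM (52.3 to 60.2, 792 UMIs) in macrophage-like cells, a ratio of 5.55 (4.84 to 6.35). A UMI was found in 102 of 170 monocyte-like cells (60.0%) and in 19.9% of macrophage-like cells, against 1.37% of Shisal2b- and Rhox5-high cells. Thinning to 1000 UMIs kept the order, at 21.0%, 5.90% and 0 of 1738 cells. Dendritic cell-like cells could not be told from macrophage-like cells (53.2 CPM, ratio 0.947, 0.590 to 1.44), while neutrophil-like and fibroblast-like cells held 1 UMI each. The gap between monocytes and macrophages depended on where the clustering drew the line between them: it was 3.01-fold at a lower resolution, which put 448 cells in the monocyte-like group, and with 20 principal components the only monocyte-like cluster held 20 cells, none of them among these 170, with 4 Ccr2 UMIs and a ratio of 0.765.

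Lymphocytes carried Ccr2 as well. The T and NK-like cells as a whole stood at 121 CPM (97.9 to 147), which was 2.15-fold above macrophage-like cells (1.72 to 2.65), and 11 of its 98 UMIs came from Cd8 T-like cells. Treg-like cells, led by Foxp3, the factor that defines regulatory T cells, reached 315 CPM (224 to 431, 39 UMIs in 18 of 32 cells), which could not be separated from monocyte-like cells (ratio 1.01, 0.705 to 1.42). Cd8 T-like cells stood at 30.2 CPM (15.1 to 54.0, 11 UMIs in 6 of 52 cells), 10.4-fold below the Treg-like cells (5.25 to 22.6). The 60 unnamed cells led by the granzyme gene Gzme stood at 237 CPM (173 to 316), with 46 UMIs in only 8 cells. When cells were classed by their own UMIs instead of by cluster, 12 cells with Ncr1 or Klrb1c and no Cd3 gene, the NK definition, stood at 286 CPM (207 to 385, 43 UMIs in 7 cells), 20.7-fold above cells with Cd3 and Cd8 genes (8.20 to 66.8). Cells with Cd3 genes and Foxp3 stood at 279.5 CPM by the same rule, 20.2-fold above the Cd8 cells (7.47 to 68.3). These classes divide the same T and NK-like cells as the clusters, so their levels are not separate observations. In 8 of the alternative settings the Cd8 T-like cluster held more Ccr2 UMIs, and the ratio of Treg-like to Cd8 T-like cells was between 2.06 and 3.37. Which cells brought these UMIs was not tested.

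Cx3cr1, the fractalkine receptor of tissue macrophages and patrolling monocytes, had the opposite order to Ccr2. It stood at 348 CPM (338 to 358, 4903 UMIs) in macrophage-like cells and 170.1 CPM (145 to 199, 161 UMIs) in monocyte-like cells, a ratio of 2.04 (1.75 to 2.41). The 8 macrophage markers summed to 21676 CPM in monocyte-like and 47912 CPM in macrophage-like cells, and the 8 monocyte markers to 5356 and 418 CPM. The part of macrophage RNA in the levels of the monocyte-like cells was not tested. Single macrophage-like cells held up to 35 UMIs, and 672 of the 1039 cells with a UMI held more than 2. The shares of cells with a UMI were 70.4% and 33.5%, or 56.2% and 39 of 130 cells after thinning to 3000 UMIs, against 5.90% and 0.473% of Shisal2b- and Rhox5-high cells. Dendritic cell-like cells held 3 UMIs (7.26 CPM), and neutrophil-like cells held none, which allows up to 76.8 CPM at their depth. Macrophage-like cells were above monocyte-like cells in every alternative processing that gave both groups, by 1.39-fold to 5.21-fold.

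Within the macrophages the receptors did not share 1 order, as the plot of macrophage states shows. The states were named from leading genes or from fixed lists, and held 405 cells led by Fosb (median 6865 UMIs), 320 led by Dnase1l3 (8340.0), 311 high in Arg1 and Spp1 (11452), 232 proliferating (12087), 184 with an interferon response (6916) and 23 with resident macrophage genes such as Lyve1 and Folr2 (5967). Cx3cr1 was highest in the Dnase1l3-led state at 475 CPM (450 to 501), followed by proliferating cells at 373 CPM (352 to 395), the Fosb-led state at 322 CPM (302 to 342), interferon response cells at 313 CPM (284 to 345) and the Arg1 and Spp1 state at 276 CPM (259 to 294). In that order only the Fosb-led and interferon response states could not be separated (ratio 1.03, 0.914 to 1.15), and the whole range spanned less than 2-fold. The resident cells stood apart, with 2 Cx3cr1 UMIs in 2 of 23 cells, or 13.4 CPM (1.62 to 48.5), and the Dnase1l3-led state was 35.4-fold above them (9.79 to 293).

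**Figure D2:**
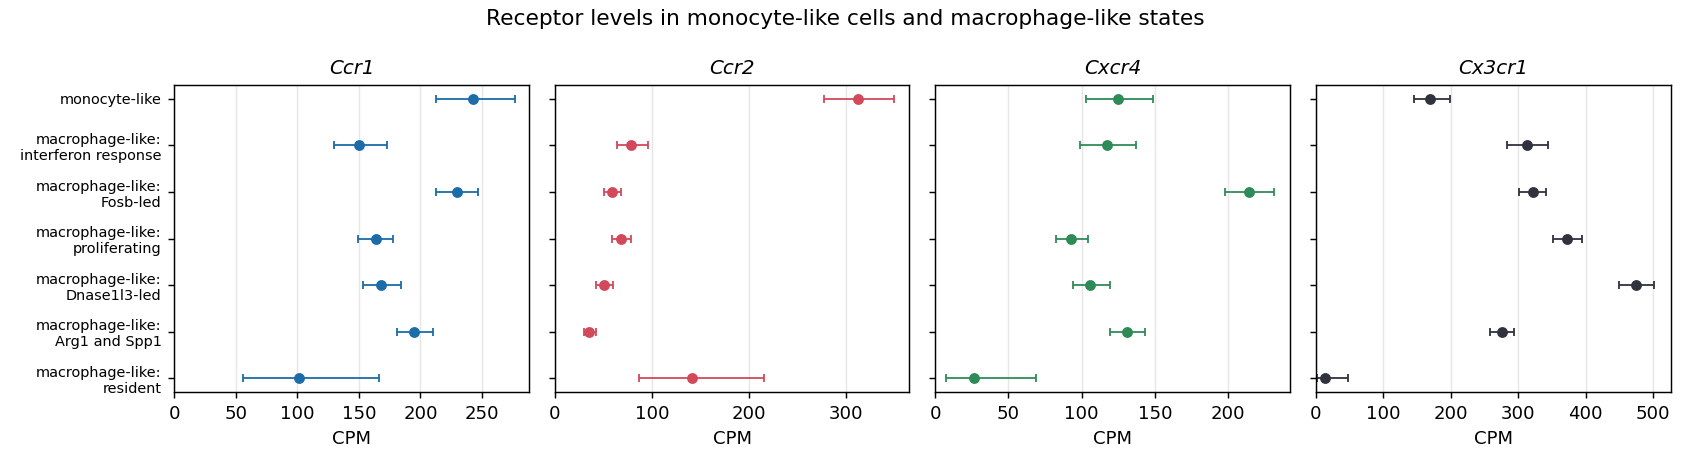
Levels of Ccr1, Ccr2, Cxcr4 and Cx3cr1 in monocyte-like cells and the macrophage states, as CPM on linear axes with exact 95% Poisson intervals. Cx3cr1 was at 276 to 475 CPM in 5 states and at 13.4 CPM in the 23 resident cells, while among the states Cxcr4 and Ccr1 were highest in the Fosb-led one, at 214 CPM and 229.8 CPM.

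Ccr2 and Ccr1 ordered the states in other ways than Cx3cr1. Ccr2 was highest among the 5 larger states in interferon response cells at 78.9 CPM (64.5 to 95.6) and proliferating cells at 68.3 CPM (59.4 to 78.1), which could not be told apart, and lowest in the Arg1 and Spp1 state at 35.7 CPM (29.8 to 42.4), 0.452 of the interferon response level (0.346 to 0.591). The 23 resident cells gave 141 CPM (87.2 to 215), but their 21 UMIs came from only 2 cells, so this value describes those 2 cells. Among the states Ccr1 was highest in the Fosb-led one at 229.8 CPM (213 to 247), not separable from monocyte-like cells (ratio of monocyte-like to Fosb-led 1.06, 0.908 to 1.23). It stood at 195 CPM in the Arg1 and Spp1 state, 168 CPM in the Dnase1l3-led state, 164 CPM in proliferating cells, 150.3 CPM in interferon response cells and 101 CPM (56.3 to 166, 15 UMIs) in resident cells, and neighbours from the Dnase1l3-led state downward could not be separated.

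Cxcr4, the Cxcl12 receptor, was also highest in the Fosb-led state. It stood there at 214 CPM (198 to 231), 1.83-fold above interferon response cells (1.53 to 2.20) and 2.30-fold above proliferating cells (2.0 to 2.65). The other states followed at 131 CPM (Arg1 and Spp1), 117 CPM (interferon response), 106 CPM (Dnase1l3-led), 93.0 CPM (proliferating) and 26.8 CPM (resident, 4 UMIs). Leading genes of the Fosb-led state included the immediate early genes Fosb and Klf4 and the chemokine genes Cxcl1 and Cxcl2. Over the broad groups Cxcr4 was at 133 CPM (127 to 139) in macrophage-like cells, 128 CPM (5 UMIs) in neutrophil-like cells and 125 CPM (103 to 149) in monocyte-like cells, which could not be told apart, then at 53.2 CPM in dendritic cell-like cells and 20.9 CPM (12.2 to 33.5, 17 UMIs) in T and NK-like cells. T and NK-like cells, a class in which Cxcr4 is often used as a homing receptor, were thus at 0.157 of the macrophage level (0.0912 to 0.252), and 13.7-fold above the Shisal2b- and Rhox5-high cells (7.72 to 22.9). Within them Treg-like cells held 6 UMIs (48.5 CPM) and the Cd8 T-like cells 1 (2.74 CPM), at counts too low for an order. With groups set by single marker genes the ratio of T and NK-like to Shisal2b- and Rhox5-high cells was 4.50.

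Cxcr2, the receptor by which neutrophils follow Cxcl1 and Cxcl2, had its highest level in the neutrophil-like cells. They held 16 of the 32 UMIs in kept cells, in 5 of 41 cells (409.8 CPM, 234 to 665). Macrophage-like cells held 0 in 14093955 UMIs, which allows up to 0.213 CPM, so neutrophil-like cells were at least 1925-fold higher, with the floor of 3 UMIs set over the group, and the counting error of the 16 UMIs gives this value a range of 1100.4 to 3126. With groups set by single marker genes 2 UMIs fell in macrophages and the ratio was 74.5 (17.5 to 668). Of the neutrophil-like cells only 6 reached 1000 UMIs, and 4 of those kept a Cxcr2 UMI when thinned to that depth. The share with a UMI over all 41 was 12.2% at a median of 710.0 UMIs, and the part of depth in it was not tested. The other receptor of this kind, Cxcr1, gave 1 UMI in the neutrophil-like cells. The 15 Cxcr2 UMIs in Shisal2b- and Rhox5-high cells lay singly in 15 cells and came to 0.196 CPM.

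Cxcr3 and Cxcr6 divided the T cells in opposite ways, as the plot of T cell groups shows. Cxcr6 stood at 306 CPM (269.5 to 347) in T and NK-like cells against 1 UMI in 14093955 (0.0710 CPM) in macrophage-like cells, a ratio of 4318 (768 to 171245). Cd8 T-like cells, led by Cd8a and Cd8b1, had the highest level at 513 CPM (442 to 592, 187 UMIs in 43 of 52 cells, 82.7%). Proliferating T cells followed at 323 CPM (233 to 437), 0.630 of the Cd8 T-like level (0.439 to 0.884). Treg-like cells stood at 80.8 CPM (38.8 to 149, 10 UMIs in 4 of 32 cells), 0.158 of it (0.0743 to 0.296) and between 0.319 and 0.396 of it under 4 alternative settings, and the 60 Gzme-led cells stood at 51.4 CPM (10 UMIs) at a median of only 1069.5 UMIs. After thinning to 3000 UMIs a Cxcr6 UMI remained in 70.8% of Cd8 T-like, 17.4% of Treg-like and 0.0591% of Shisal2b- and Rhox5-high cells. NK cells defined by their own UMIs held 3 Cxcr6 UMIs (19.9 CPM), 0.0350 of the level in cells with Cd3 and Cd8 genes (0.00715 to 0.104).

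**Figure D3:**
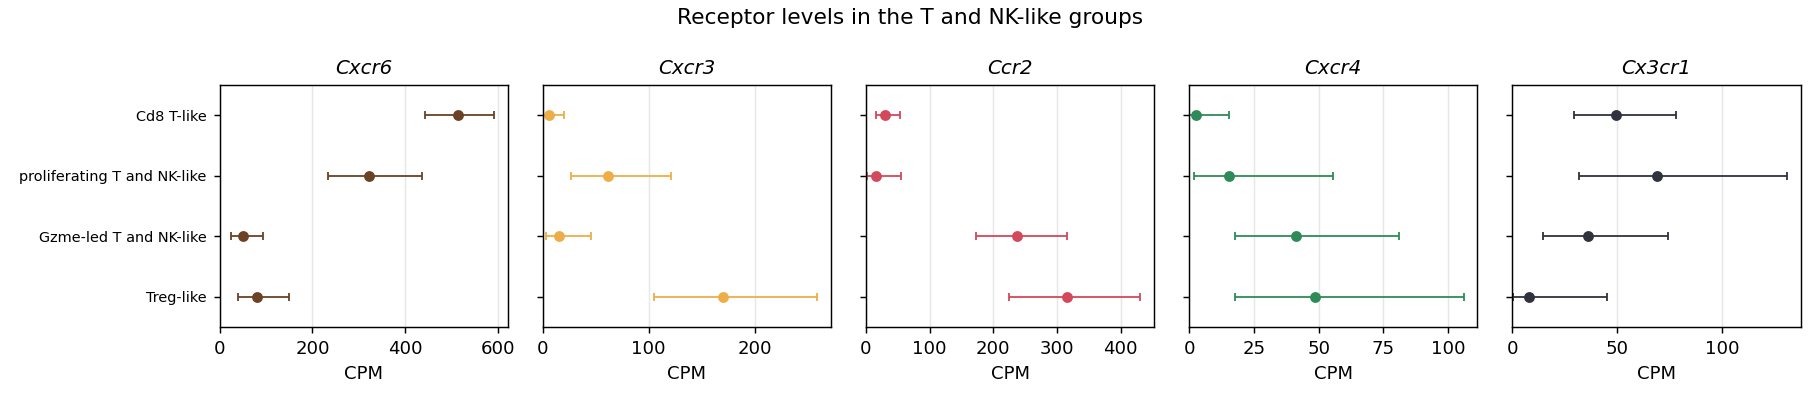
Levels of Cxcr6, Cxcr3, Ccr2, Cxcr4 and Cx3cr1 in the T and NK-like groups, as CPM on linear axes with exact 95% Poisson intervals. Cxcr6 was highest in Cd8 T-like cells at 513 CPM, whereas Ccr2 at 315 CPM and Cxcr3 at 169.8 CPM were highest in Treg-like cells.

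Cxcr6 was also compared between Cd8 cells with more and fewer checkpoint genes. Among the 55 cells with Cd3 and Cd8 genes, the 40 in which at least 2 of Pdcd1, Lag3, Havcr2 and Tigit had a UMI stood at 602 CPM (518 to 697), and the 15 with fewer stood at 415 CPM (271 to 608), with overlapping intervals. A Cxcr6 UMI was found in 38 of the 40 cells and in 7 of the 15. The 40 cells were also deeper, with a median of 7206 against 4949 UMIs, and the part of depth in this difference was not tested.

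Cxcr3 had its highest level in Treg-like cells. They stood at 169.8 CPM (105 to 259, 21 UMIs in 15 of 32 cells, 46.9%), against 2 UMIs in 1 of 52 Cd8 T-like cells (5.49 CPM), a ratio of 30.9 (7.56 to 272), or 7.04 with 3000 variable genes, when the Cd8 T-like cells held 8 UMIs. Classing by UMIs gave 178 CPM in cells with Foxp3 and 8.30 CPM in cells with Cd8 genes, a ratio of 21.4 (5.98 to 116). Proliferating T cells lay between them at 61.5 CPM (8 UMIs). The 5 genes most like Cxcr3 over the 16 groups, by Pearson r, were Il2ra (0.966), Adal (0.939), Cma1 (0.934), Glcci1 (0.927) and Ikzf2 (0.926). Il2ra and Ikzf2 are on the Treg marker list that named the group, so their likeness is not a separate observation. The other genes are not on that list.

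A weak Cxcr3 signal lay in the macrophages, which held 54.8% of all its UMIs because they were so many. Macrophage-like cells stood at 4.04 CPM (3.06 to 5.24, 57 UMIs in 48 cells, single UMIs in 42), and T and NK-like cells were 10.3-fold above them (6.56 to 16.1). The Dnase1l3-led state, which was also high in Cxcl9, a ligand of Cxcr3, stood at 9.65 CPM (6.36 to 14, 27 UMIs, 7.19% of cells), 5.97-fold above the Fosb-led state (2.27 to 19.9). It could not be separated from proliferating cells at 5.13 CPM (ratio 1.88, 0.977 to 3.74). The 9 T cell markers summed to 4.65 CPM in the Dnase1l3-led state, 4.40 CPM in all macrophage-like cells and 5528 CPM in T and NK-like cells.

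Cx3cr1 was also found in lymphocytes, at few UMIs. T and NK-like cells stood at 43.1 CPM (30 to 59.9, 35 UMIs). Cd8 T-like cells held 18 UMIs in 12 of 52 cells (49.4 CPM, 29.3 to 78.0) and Treg-like cells 1 (8.08 CPM), a ratio whose interval included 1 (0.164, 0.00393 to 1.04). Proliferating T cells held 9 (69.2 CPM, 1.40 of the Cd8 T-like level, 0.555 to 3.29) and the Gzme-led cells 7 (36.0 CPM). The 8 macrophage markers summed to 631 CPM in Cd8 T-like cells, 970.0 CPM in Treg-like cells and 47912 CPM in macrophage-like cells. Ccr1, also abundant in macrophages, gave 1 UMI in Cd8 T-like cells. Fibroblast-like cells held 10 Cx3cr1 UMIs in 6 of 41 cells (22.3 CPM, 10.7 to 41.0), with macrophage markers at 1224 CPM. The part of macrophage RNA in these Cx3cr1 counts was not tested.

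Across all genes, a gene was called different between groups when its ratio was at least 2, its interval excluded 1 and both groups together held at least 20 UMIs. Between monocyte-like and macrophage-like cells, 2.41% of 11234 genes were called higher and 6.43% lower in monocytes, and of the 5 receptors with enough UMIs Ccr2 was higher and Cx3cr1 lower. The median log2 ratio of the 5 was -0.09, next to -0.08 over all genes tested. Between T and NK-like and macrophage-like cells, 11.3% of 11443 genes were called higher and 12.6% lower in T and NK-like cells, and all 6 receptors with enough UMIs were called, Ccr2, Cxcr3 and Cxcr6 higher and Ccr1, Cxcr4 and Cx3cr1 lower. Ccr1 (3 against 2610 UMIs) and Cxcr4 (17 against 1879) reached 20 UMIs only through macrophage-like cells. Cxcr6 (249 against 1) did so only through T and NK-like cells. Between Treg-like and Cd8 T-like cells, 13.1% of 3075 genes were called higher and 4.85% lower in Treg-like cells. Of the 3 receptors with enough UMIs, Ccr2 and Cxcr3 were called higher and Cxcr6 lower. Cxcr3 reached 20 UMIs only through Treg-like cells (21 against 2 UMIs) and Cxcr6 mainly through Cd8 T-like cells (187 against 10). Ccr1, Cxcr2, Cxcr4 and Cx3cr1 fell below that limit. The receptors were also chosen with earlier results of these data known, so the calls are no measure of the receptors as a set.

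The Shisal2b- and Rhox5-high cells held few UMIs of any receptor, and the plot of their level as a share of the macrophage level sets these beside macrophage markers. Cx3cr1 was at 0.431% (0.355 to 0.519) of its macrophage level, Ccr2 at 0.580%, Ccr1 at 0.613%, Cxcr3 at 0.967% (3 UMIs) and Cxcr4 at 1.14% (0.941 to 1.38). The 8 macrophage markers ran from 0.380% (C1qc) to 0.794% (Apoe) and the leukocyte gene Ptprc was at 0.699% (0.593 to 0.819), so Cxcr4 was the only one of these 5 receptors whose interval lay above every macrophage marker's value. Its 117 UMIs lay in 114 of 1746 cells, 6.53% at a median of 40784 UMIs, and thinning to 3000 UMIs left 0.532%. The part of free RNA from other cells in these counts was not tested. The 8 Cxcr6 UMIs of these cells (0.104 CPM) lay in 7 cells.

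**Figure D4:**
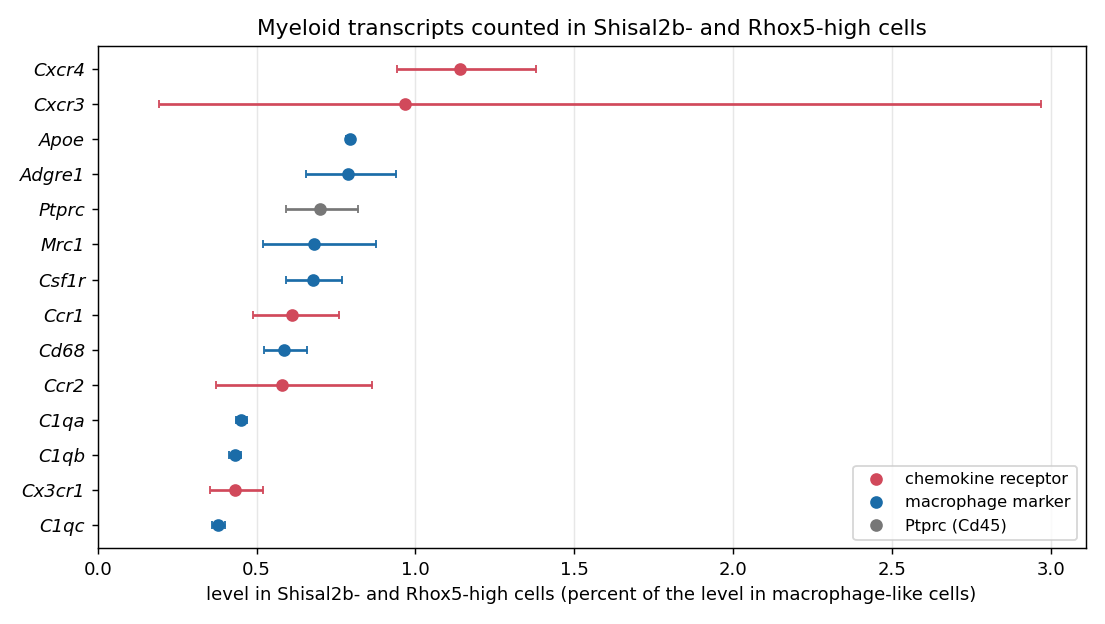
Level in Shisal2b- and Rhox5-high cells as a percent of the level in macrophage-like cells for 5 receptors, 8 macrophage markers and Ptprc, with exact 95% intervals. Receptors lay between 0.431% (Cx3cr1) and 1.14% (Cxcr4), and macrophage markers between 0.380% and 0.794%.

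Ccr2 and Cx3cr1, which mark the ends of the monocyte to macrophage course in many tissues, were also counted in the same cells at a fixed depth. After thinning to 3000 UMIs both were found in 20 of 130 monocyte-like and 81 of 1273 macrophage-like cells, and Ccr2 was found in 51.3% of Cx3cr1-positive and 44.0% of Cx3cr1-negative monocyte-like cells, and in 11.3% and 12.4% of macrophage-like cells. At 1000 UMIs the order in monocyte-like cells was the other way, at 13.3% of Cx3cr1-positive and 21.7% of Cx3cr1-negative cells. At 3000 UMIs the states went different ways below this average: in interferon response cells Ccr2 was in 9.09% of Cx3cr1-positive and 26.0% of Cx3cr1-negative cells, and in the Arg1 and Spp1 state in 13.4% and 3.87%. No Cd8 T-like cell of 48 at that depth held Cxcr3, while 34 held Cxcr6. Cells share 1 library, so these shares are descriptions.

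The genes whose log2 level over the 16 named groups was most like each receptor's, by Pearson r, were Cybb (0.976) for Ccr1, Madd (0.924) for Ccr2, Il2ra (0.966) for Cxcr3, Naip2 (0.956) for Cxcr4, Il2rb (0.971) for Cxcr6 and Tmem171 (0.920) for Cx3cr1. Cybb encodes a subunit of the phagocyte NADPH oxidase, and Il2ra and Il2rb encode chains of the interleukin-2 receptor. Ccr1 itself came next after Naip2 for Cxcr4 (0.933), the only pair among the 7. The groups share 1 library and differ in depth, and Cxcr2 had too few UMIs for this measure.

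Of 16 other chemokine receptors, few reached the level needed for comparison. Ccrl2, a receptor that binds chemerin, stood at 182 CPM (175 to 189) in macrophage-like and 20.9 CPM in T and NK-like cells and was called lower in the latter. Its level in neutrophil-like cells was 666 CPM (435 to 976). Ccr7, which guides dendritic cells to lymph nodes, was at 206 CPM (164 to 254) in dendritic cell-like cells and 0.284 CPM in macrophage-like cells, and Xcr1, the receptor of cross-presenting dendritic cells, at 50.8 CPM in the former. Ackr3, the scavenging receptor for Cxcl12, stood at 203 CPM (163 to 249) in fibroblast-like and 16.1 CPM (15.2 to 17.0) in Shisal2b- and Rhox5-high cells against 1.92 CPM in macrophage-like cells.

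Ligands for these receptors came from different cells, as the plot of ligand levels shows. The Ccr2 ligand Ccl2 was highest in the Shisal2b- and Rhox5-high cells at 1546 CPM (1537 to 1554), with 443 CPM in macrophage-like and 497 CPM in fibroblast-like cells. Ccl12 was a macrophage transcript at 744 CPM, 1684 CPM in the interferon response state, and Ccl8 reached 8681 CPM (8214 to 9167) in the 23 resident cells against 692 CPM in all macrophage-like cells. Among ligands of Ccr1, Ccl6 was at 5695 CPM in resident and 1459.9 CPM in neutrophil-like cells, and Ccl5 at 2086 CPM (1988 to 2187) in T and NK-like cells. The Cxcr2 ligand Cxcl2 was at 7095 CPM (6284 to 7981) in the neutrophil-like cells themselves and 201 CPM in macrophage-like cells.

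Of the Cxcr3 ligands, both induced by interferon, Cxcl9 was at 1928 CPM in the Dnase1l3-led and 1615 CPM in the interferon response state against 115 CPM in Shisal2b- and Rhox5-high cells, while Cxcl10 was at 1961 CPM in the interferon response state and 1020.1 CPM in Shisal2b- and Rhox5-high cells. Cxcl16, the ligand of Cxcr6, was a macrophage transcript at 686 CPM (673 to 700.1), with 554 CPM in monocyte-like, 14.8 CPM in T and NK-like and 4.93 CPM in Shisal2b- and Rhox5-high cells. Receptor and ligand of this pair thus lay in different cells, Cxcr6 in Cd8 T-like and Cxcl16 in myeloid cells. Among the groups plotted, Cxcl12 was highest in fibroblast-like cells at 198 CPM (159 to 244), and it gave 1 UMI in macrophage-like cells. It was also among the leading genes of 46 unnamed cells led by Csf3 (median 636 UMIs), which entered no comparison. Cx3cl1 had few UMIs, at 3.40 CPM (3.0 to 3.84) in Shisal2b- and Rhox5-high cells, 8.92 CPM (4 UMIs) in fibroblast-like cells, 25.6 CPM (1 UMI) in neutrophil-like cells and 1.06 CPM in macrophage-like cells.

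**Figure D5:**
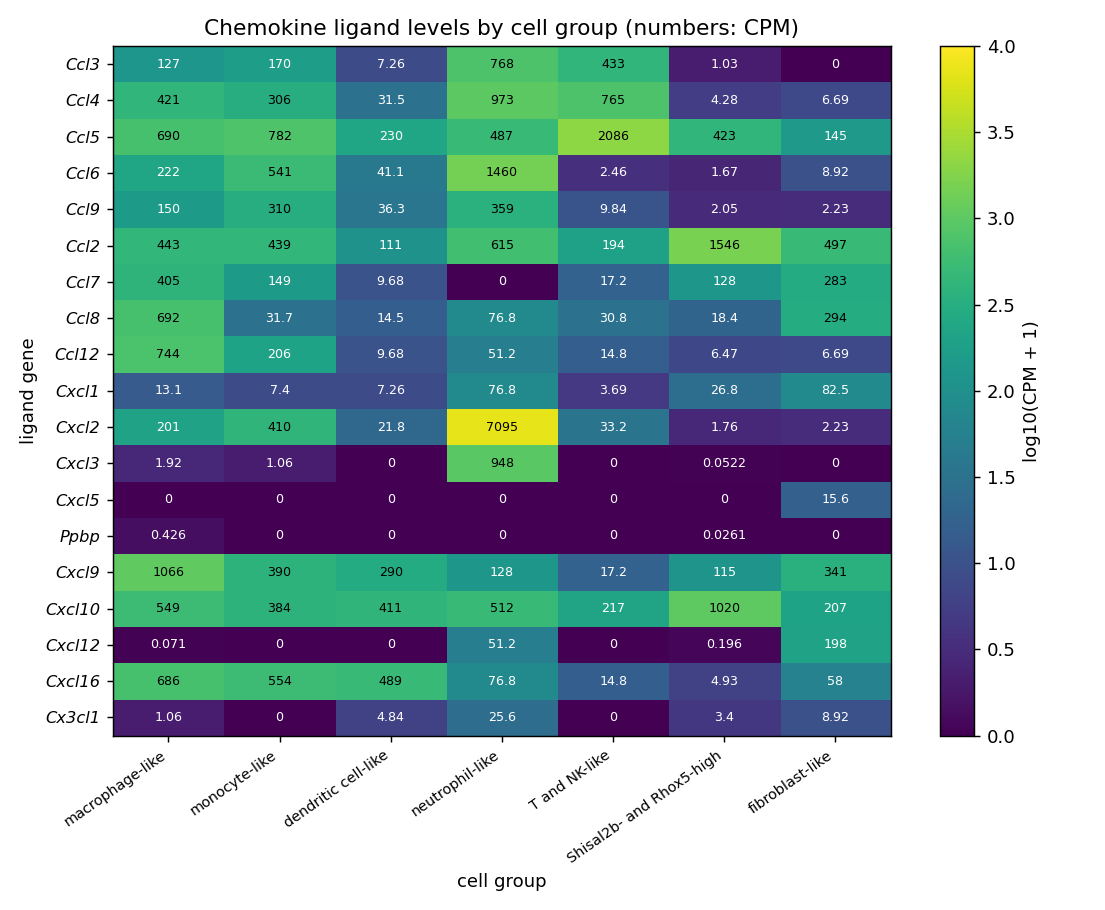
Levels of 19 chemokine ligands (rows) by cell group (columns), printed as CPM and coloured by log10(CPM + 1). Among the groups shown, Ccl2 was highest in Shisal2b- and Rhox5-high cells at 1546 CPM, Cxcl16 in macrophage-like cells at 686 CPM, and Cxcl12 in fibroblast-like cells at 198 CPM. Unnamed cells are not shown.

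The ligands were compared between groups in the same way. The table held 19 of the listed ligands, of which 15 were tested between monocyte-like and macrophage-like cells, and against the 2.41% and 6.43% of all genes, 3 were higher and 4 lower in monocyte-like cells: Ccl6 (2.44-fold), Ccl9 (2.07-fold) and Cxcl2 (2.04-fold) higher, Ccl7 (0.368), Ccl12 (0.277), Cxcl9 (0.366) and Ccl8 (0.0458) lower. Between T and NK-like and macrophage-like cells, where 11.3% of all genes were called higher and 12.6% lower, 2 of 15 ligands were higher, Ccl3 and Ccl5, and 11 lower, at a median log2 ratio of -2.57 against 0.14 over all genes. Of those lower, Ccl6, Ccl7, Ccl9, Ccl12, Cxcl1, Cxcl9 and Cxcl16 reached 20 UMIs only through macrophage-like cells. Ccl2, Ccl8, Cxcl2 and Cxcl10 held at least 20 in each group. Between Treg-like and Cd8 T-like cells, where 13.1% of all genes were called higher and 4.85% lower, 4 of the 6 ligands tested were called. Ccl3 (48.5 against 744 CPM) and Ccl4 (80.8 against 936 CPM) were lower in Treg-like cells, and Ccl2 (275 against 96.0 CPM) and Cxcl2 (194 against 2.74 CPM) were higher. The Cxcl2 ratio of 70.7 (11.5 to 2908) rests on 24 UMIs against 1. Ccl3 (6 against 271 UMIs) and Ccl4 (10 against 341) reached 20 UMIs only through Cd8 T-like cells. The ligands were also listed with earlier results of these data known, so these counts and medians are no measure of the ligands as a set.

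The signalling genes downstream of the receptors were compared last. All 16 were tested between monocyte-like and macrophage-like cells and 1, Rgs18, was called, higher in monocyte-like cells, beside 2.41% of all genes higher and 6.43% lower. Between T and NK-like and macrophage-like cells, beside 11.3% of all genes higher and 12.6% lower, 3 of 16 were higher, among them Rgs16, which shortens G protein signals (151 against 2.06 CPM), and 5 were lower, among them Rgs1 and both arrestin genes Arrb1 and Arrb2. Rgs1, which desensitises chemokine receptors, was at 2773 CPM in the Fosb-led state where Cxcr4 was also highest, against 1648 CPM in all macrophage-like cells. Between Treg-like and Cd8 T-like cells 11 were tested, beside 13.1% of all genes higher and 4.85% lower. Rgs1 (962 against 466 CPM) and Rgs2 (372 against 52.1 CPM) were called higher in Treg-like cells and Rgs16 (56.6 against 247 CPM) lower. In this comparison Rgs16 reached 20 UMIs only through Cd8 T-like cells (7 against 90 UMIs). As for the ligands, these counts are no measure of the signalling genes as a set.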

How the data were processed

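Single-cell RNA-seq of 1 library of MC38 tumors (Chromium Next GEM Single Cell 3' v3.1) was used. The authors deposited raw UMI counts of each gene in each called barcode, made with Cell Ranger on GRCm38/mm10; the file header gives version 5.0.1, while the study's methods name an earlier major version, and the submitters' processing notes also name FastQC and Seurat. The counts were not normalised by the authors. Called cells held 511 to 231902 UMIs (median 9248, 106631000 in all). A mitochondrial share of up to 20% and 200 or more genes were required of a cell, which removed 667 by mitochondrial share and 0 by genes, and 197 cells with the highest scores against simulated doublets (2 per cell, at a rate of 0.8% per 1000 cells) were removed.

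Counts scaled to 10000 per cell were log-transformed and clustered by the Leiden method on 30 principal components of 2000 variable genes, with 20 neighbours and resolution 0.5, and again within myeloid cells and within T and NK-like cells (1000 genes, 15 components, resolution 0.5 and 1.0). A cluster of 166 cells with mixed markers (median 712 UMIs) was also clustered again at resolution 1.0. The neutrophil-like and pericyte-like cells came from this mixed cluster. All chemokine and chemokine receptor genes were left out of the variable genes. Clusters were named from marker lists by rules set after the clusters were seen, so names can differ from the study's own. Levels were summed UMIs per 1000000, with exact Poisson, Clopper-Pearson and conditional binomial intervals at 95%, and a count of 0 was given a limit of 3 UMIs. Likeness was the Pearson r of log2(CPM + 10) over groups among genes with at least 100 UMIs. The genes named were the 7 receptors, 16 other receptors, 20 ligands (19 in the table) and 16 signalling genes, listed by function, plus the 5 most alike for each receptor. The members and lists were chosen with earlier results of these data known. Calls across all genes were tested on simulated data. Alternatives were other cell filters, clustering settings, thinned cells, single marker genes and a mean over cells. The 738 unnamed cells entered no comparison. Clusters came from leidenalg 0.10.2 and igraph 0.11.9, components from scikit-learn 1.9.0, intervals from scipy 1.17.1 and plots from matplotlib 3.10.9, all under Python 3.11.15 (pandas 2.3.3, numpy 2.4.6).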

Additional observations from a re-analysis of the deposited data

Results flagged for a closer look

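Receptor transcripts were also present in cells that entered no comparison, above the limit that a count of 0 allows. In the 667 cells removed for their mitochondrial share (median 4887 UMIs) the levels were 7.32 CPM for Ccr1, 3.66 CPM for Ccr2, 1.13 CPM for Cxcr2, 11 CPM for Cxcr4, 1.97 CPM for Cxcr6 and 8.73 CPM for Cx3cr1, while Cxcr3 had 0 UMIs. Each level lay below that of the kept group in which the receptor was highest. In the 197 cells removed by doublet score (median 24248 UMIs) the levels were 42.2 CPM for Ccr1, 11.8 CPM for Ccr2, 25.3 CPM for Cxcr4, 2.0 CPM for Cxcr6 and 52.3 CPM for Cx3cr1, between those of macrophage-like and Shisal2b- and Rhox5-high cells for Ccr1, Ccr2, Cxcr4 and Cx3cr1. Cxcr2 and Cxcr3 had 2 UMIs each there. These cells belong to no named group, and no difference was tested.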

How the results depend on the processing

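No paired analysis was possible because there was 1 library. Of 133 comparison ratios under alternative processing, 98 stayed within the counting interval of the reported value, 34 moved outside it and 1 turned its direction, and of 602 levels 515 stayed and 87 moved. The one that turned was Ccr2 in monocyte-like over macrophage-like cells, at 0.765 with 20 principal components, where the monocyte-like cluster held 20 cells and shared none with the 170 reported. It was otherwise 6.42 with doublets kept, 3.01 at a lower resolution and 3.69 with cells thinned to 1000 UMIs. Cx3cr1 in macrophage-like over monocyte-like cells was 3.42 with no mitochondrial limit, 3.07 with doublets kept, 5.21 with 20 principal components, 1.39 at a lower resolution, 2.85 with another seed, 2.49 with 10 neighbours, 2.45 as a mean over cells, 2.51 with groups from single markers and 3.19 when thinned. Also when thinned, Ccr1 in macrophage-like over T and NK-like cells was at least 7.86 because the latter kept 0 UMIs, Cxcr3 in T and NK-like over macrophage-like cells was 42.6 and Cxcr6 at least 145, with 0 UMIs left in macrophages. Cxcr2 in neutrophil-like over macrophage-like cells was at least 787 as a mean over cells and 74.5 with single markers, which also gave 4.50 for Cxcr4 in T and NK-like over Shisal2b- and Rhox5-high cells.

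The ratios of Treg-like to Cd8 T-like cells and 2 alternatives for Cxcr4 were chosen after seeing the data. For Ccr2 the ratio was 2.39 with a 10% mitochondrial limit, 2.66 with none, 2.74 with doublets kept, 2.06 with 20 principal components, 3.37 at a lower resolution, 2.71 with another seed, 2.75 with 10 neighbours, 2.70 with chemokine and receptor genes kept and 4.03 when thinned. In the first 8 of these the Cd8 T-like cluster held 53 to 57 Ccr2 UMIs in place of 11. For Cxcr6 it was 0.332 with a 10% limit, 0.335 with none, 0.319 with 3000 variable genes, 0.396 with 20 principal components and 0.0538 when thinned, and for Cxcr3 it was 7.04 with 3000 variable genes and at least 2.69 when thinned. The cause of these changes was not tested. No neutrophil-like cluster was found with 500 genes per cell, 3000 variable genes, 20 principal components, 10 neighbours or another resolution, no monocyte-like cluster with 500 genes, and no dendritic cell-like cluster with 500 genes or 20 principal components, so those values could not be had. Depth limits the values of the groups with few cells, such as the pericyte-like (18), Treg-like (32), neutrophil-like (41) and fibroblast-like (41) cells.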

Other observations

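The 738 unnamed cells (median 1049.5 UMIs) held 139 Cx3cr1 UMIs (69.9 CPM), 124 Ccr1 UMIs (62.3 CPM), 82 Cxcr4 UMIs (41.2 CPM) and 58 Ccr2 UMIs (29.2 CPM), and their macrophage markers summed to 12194 CPM against 47912 CPM in macrophage-like cells. Cxcr3 gave 4 UMIs, Cxcr6 3 and Cxcr2 0 in them. Among them, 221 cells led by Mcpt1 held 127 of the Cx3cr1 UMIs (165 CPM), 112 of Ccr1 (146 CPM), 70 of Cxcr4 (90.9 CPM) and 55 of Ccr2 (71.5 CPM). The macrophage markers of these 221 cells summed to 28598 CPM. The 18 pericyte-like cells held no UMI of any of the 7 receptors.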
